A study of Homo sapiens with 9 samples.

Results

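The 10 genes described here encode proteins that hold back ferroptosis without glutathione peroxidase GPX4, and enzymes that build coenzyme Q (CoQ), the lipid that several of these proteins reduce. They are AIFM2, DHODH, GCH1, VKORC1L1, PDSS1, PDSS2, COQ2, COQ7, COQ8A and COQ9. They were matched by gene symbol to the 58735 genes in the count files, 1 row each. The choice of these genes was made with earlier results of these data known. RNA was sequenced from MDA-MB-231, an established human triple-negative breast cancer cell line. The vehicle cells had been treated with DMSO. The erastin-R cells had survived increasing erastin, which blocks cystine uptake through system xc-, and the RSL3-R cells had survived increasing RSL3, an inhibitor of GPX4. Each group had 3 libraries. All cells were of 1 line. For resistant sublines, the methods describe culture of survivors with drug at rising dose, but the sources used here do not say whether the sequenced cells were these sublines or were harvested in drug. They also do not say whether the 3 libraries of a group came from separate cultures, so the p values measure the spread between these libraries, which may be technical.

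Ferroptosis is death by iron-dependent peroxidation of membrane lipids. GPX4 reduces lipid peroxides with glutathione, and parallel systems trap the lipid radicals that carry the chain reaction. AIFM2, better known as FSP1, uses NAD(P)H to reduce CoQ and vitamin K at membranes, and the reduced quinones quench lipid radicals. DHODH, the pyrimidine enzyme of the inner mitochondrial membrane, passes electrons from dihydroorotate to CoQ. GCH1 catalyses the first and rate-limiting step of tetrahydrobiopterin synthesis, a radical-trapping cofactor. VKORC1L1 reduces vitamin K. PDSS1 and PDSS2 are the subunits of the enzyme that makes the isoprenoid tail of CoQ, COQ2 joins that tail to the ring, COQ7 hydroxylates the ring, COQ9 is the lipid-binding partner of COQ7, and COQ8A is an atypical kinase of the CoQ synthesis complex.

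The genes lie on 7 chromosomes of GRCh38. AIFM2 (ENSG00000042286) spans chr10:70098223-70132934 on the minus strand, DHODH (ENSG00000102967) chr16:72008588-72027664 on the plus strand, GCH1 (ENSG00000131979) chr14:54842008-54902852 on the minus strand and VKORC1L1 (ENSG00000196715) chr7:65873166-65959563 on the plus strand. For the CoQ genes, PDSS1 (ENSG00000148459) spans chr10:26697659-26746798 on the plus strand, PDSS2 (ENSG00000164494) chr6:107152557-107459564 on the minus strand and COQ2 (ENSG00000173085) chr4:83261536-83284914 on the minus strand. COQ7 (ENSG00000167186) spans chr16:19067599-19080095, COQ8A (ENSG00000163050) chr1:226897536-226987545 and COQ9 (ENSG00000088682) chr16:57447425-57461275, each on the plus strand.

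Promoter windows from RefSeq (GRCh38), each covering 250 bases before and 50 bases after an annotated start, were held for 9 of the 10 genes, in 12 windows, of which 4 belonged to COQ7. GCH1 had none. The stretches shown are those of the genes that differed between groups and in which a script found the core letters of a stress-response or growth-related element, on either strand. The antioxidant response element core, TGACNNNGC, which NRF2 binds, was found in AIFM2, VKORC1L1 and COQ7. Counted by window, it was in 4 of the 12, with the same COQ7 site in windows of different starts. Of all 35116 windows, 13.35% had it. The E-box CACGTG, bound by MYC, USF and TFE3, was found in 1 window, that of DHODH, and in 7.26% of all windows. The core of the element bound by nuclear respiratory factor 1, GCATGCGC, was found in 1 window, that of COQ2, and in 3.05% of all windows. Capitals mark these letters, or their reverse complement, in stretches of 30 bases written along the strand of the gene.
AIFM2 antioxidant response element core, chr10:70132828-70132857, minus strand: cagcacgagtGCTGAGTCAcgccccgcccg
VKORC1L1 antioxidant response element core, chr7:65872854-65872883, plus strand: ccgagggttcGCCCAGTCAcccacagtggc
COQ7 antioxidant response element core, chr16:19067740-19067769, plus strand: aaaaggaggcGCGCAGTCAcagtcctgcgc
DHODH E-box, chr16:72008573-72008602, plus strand: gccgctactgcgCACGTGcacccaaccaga
COQ2 NRF1 core, chr4:83284803-83284832, minus strand: cgggtgccactGCGCATGCctgccggggaa

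The first base of the match lay at position -22 from the RefSeq start in AIFM2, at -210 in VKORC1L1, at -159 in DHODH and at -23 in COQ2. In COQ7 it lay at -157 in the window of 1 start and at 27 in that of another. The matches of AIFM2, DHODH and COQ2 overlapped exons of GENCODE release 29, and those of VKORC1L1 and COQ7 did not. The DHODH match, chr16:72008585-72008590, was only partly exonic, since the annotated gene begins at 72008588. COQ8A rose most in erastin-R cells and had none of these elements. For it, the 120 bases before the first annotated exon base in its window are shown. The GC box GGGCGG, the site of SP1, is in capitals. This stretch lies at a RefSeq start within the annotated gene, which begins at 226897536, and not upstream of the whole gene.
COQ8A, chr1:226940166-226940285, plus strand: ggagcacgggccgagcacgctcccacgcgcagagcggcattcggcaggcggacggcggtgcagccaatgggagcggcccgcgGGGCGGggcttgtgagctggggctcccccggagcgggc

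GC boxes were found in all 9 genes with a window. Counted by window, they were in 11 of the 12, and in 44.95% of all windows. The letters TGATGCAA of the composite element bound by C/EBP factors and ATF4, present in 0.87% of windows, and TCACNCCAC of the sterol regulatory element, present in 1.13%, were found in none of the 9. These matches describe the sequence only, since binding was not measured.

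Total counts ranged from 15405102 to 17273464 per library, and the coefficient of variation between libraries of a group was 8.56% (edgeR's common dispersion). The 10 genes had 101 to 1753 counts per library, and all of them were among the 16188 genes that passed the filter on low counts. Values are given in counts per 1000000 counted reads (CPM), with library sizes scaled by edgeR's TMM method, with the SD of 3 libraries. Of 5 luminal and HER2 markers, the hormone receptors ESR1 and PGR were nearly absent, with 1 to 12 and 0 to 2 counts. FOXA1 had 13 to 38 counts, GATA3 54 to 117 and ERBB2 927 to 1598, and the list summed to 94.8 to 105 CPM in vehicle, 84.4 to 98.02 CPM in erastin-R and 64.8 to 70.6 CPM in RSL3-R libraries. ERBB2 was lower in both survivor groups than in vehicle cells (log2 fold change, log2FC, of -0.19, adjusted p = 0.0352 by edgeR, and -0.59, adjusted p = 1.21e-05). The mesenchymal markers VIM, CD44, AXL, CAV1 and EGFR summed to 3607 to 3806 CPM over the 9 libraries, but single markers differed in opposite directions. Against vehicle cells, CAV1 (log2FC -1.14 in erastin-R and -0.86 in RSL3-R) and CD44 (-0.15 and -0.43) were lower in both groups. AXL (0.58 and 0.40) and EGFR (0.26 and 0.78) were higher in both. Each had an adjusted p under 0.05 by edgeR, and VIM passed in neither comparison. The summed level of 4 immune and endothelial markers (PTPRC, CD68, CD3E and PECAM1) was 10.2 to 11.6 CPM in vehicle, 1.46 to 2.79 CPM in erastin-R and 13.1 to 15.6 CPM in RSL3-R. PECAM1 was the most abundant of them in each library, and it was lower in erastin-R (log2FC -2.47, adjusted p = 8.27e-08) and higher in RSL3-R than in vehicle cells (0.36, adjusted p = 0.0468). PTPRC had 4 to 11 counts in vehicle, 3 to 11 in erastin-R and 19 to 24 in RSL3-R libraries, and was higher in RSL3-R than in vehicle cells (1.67 ± 0.46, adjusted p = 0.00817). CD68 and CD3E had at most 7 counts. The part of all these markers in any result was not tested.

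Levels were also read per length of exon (RPKM, the CPM divided by the exon length in kilobases). This length joins all annotated exons of a gene. Which transcripts the cells made was not examined, so the order between genes depends on this choice of length. VKORC1L1 had the highest RPKM of the 10 genes in each group, at 17.2 ± 0.19 RPKM in vehicle cells (SD, n = 3). In vehicle cells it was followed by PDSS1 (11.2 RPKM), COQ2 (10.05 RPKM), COQ9 (7.54 RPKM), AIFM2 (6.29 RPKM) and PDSS2 (5.37 RPKM). Below these came COQ8A (4.40 RPKM) and GCH1 (4.20 RPKM), whose libraries overlapped, then COQ7 (3.19 RPKM) and DHODH (1.63 RPKM). All other neighbours in this order had libraries that did not overlap. In erastin-R cells the order changed: AIFM2 stood in place 2 with 8.36 ± 0.45 RPKM and COQ8A in place 4 with 7.79 ± 0.28 RPKM, while COQ7 was last with 1.60 ± 0.096 RPKM. From AIFM2 in place 2 through COQ2, COQ8A and COQ9 to PDSS1 in place 6, the libraries of each neighbouring pair overlapped. Those of PDSS1 lay above those of PDSS2, which overlapped those of GCH1. In RSL3-R cells COQ2 was second (7.55 RPKM), and COQ8A (4.92 RPKM), AIFM2 (4.83 RPKM) and PDSS2 (4.69 RPKM) overlapped in sequence. DHODH was again the lowest at 1.32 ± 0.095 RPKM.

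**Figure D1:**
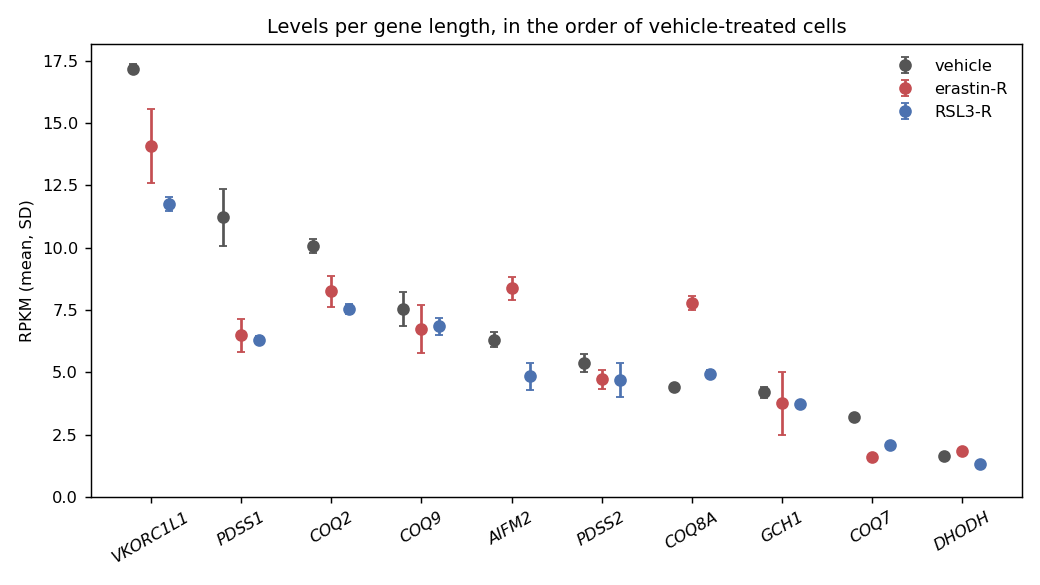
Mean level per exon length (RPKM, vertical axis) of the 10 genes in vehicle, erastin-R and RSL3-R cells, with bars of 1 SD over 3 libraries, in the order of vehicle cells. VKORC1L1 was highest in every group, AIFM2 and COQ8A stood higher in erastin-R cells than in the other groups, and PDSS1, COQ2, COQ7 and VKORC1L1 stood lower in both survivor groups.

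The question asked of these libraries was which genes differed in cells that had survived either drug. In erastin-R against vehicle cells, AIFM2 and COQ8A were higher and VKORC1L1, PDSS1, COQ2 and COQ7 were lower. In RSL3-R against vehicle cells, AIFM2, DHODH, VKORC1L1, PDSS1, COQ2 and COQ7 were lower. In RSL3-R against erastin-R cells, COQ7 was higher, and AIFM2, DHODH, VKORC1L1 and COQ8A were lower. A gene was taken to have risen or fallen when edgeR's quasi-likelihood test gave a p under 0.05 after Benjamini-Hochberg adjustment over all 16188 genes. These are bulk libraries, so a smaller share of cells with a transcript and less of it in each cell cannot be told apart.

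Counted in either direction, the number of genes called was close to the background. The share called lower was 40%, 60% and 40% in the 3 comparisons, against 26.8%, 24.9% and 26.9% of all genes tested. In erastin-R against vehicle cells 6 of the 10 genes passed (2 higher, 4 lower), where 54% of all genes tested did (27.1% higher, 26.8% lower). In RSL3-R against vehicle cells 6 passed, each of them lower, where 48.7% of all genes passed (23.8% higher, 24.9% lower). Of these calls, that of DHODH was lost under 9 of 14 alternatives, and DESeq2 gave 5 calls. COQ8A was higher in RSL3-R than in vehicle cells at an unadjusted p of 0.0328 by edgeR, and no gene was called higher by DESeq2. Between the survivor groups 5 passed (1 higher, 4 lower), where 49.2% of all genes passed (22.3% higher, 26.9% lower). The median log2FC of the 10 genes was -0.17 in erastin-R, -0.35 in RSL3-R and -0.083 between the survivor groups, against -0.0042, 0.0053 and -0.024 for all genes tested. The libraries of the 2 groups compared did not overlap for 7 of the 10 genes in erastin-R against vehicle (57.9% of all genes tested), for 8 in RSL3-R against vehicle (61.9%) and for 6 between the survivor groups (55.2%). Of the 10 genes, 4 (40%) were lower and 0 higher in both survivor groups, where 14.5% and 14.1% of all genes tested were. Both comparisons with vehicle used the same vehicle libraries, so they are not independent of each other.

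Changes were not large beside those of all genes tested. The median absolute log2FC of the 10 genes was 0.285 in erastin-R, 0.345 in RSL3-R and 0.195 between the survivor groups. For all genes tested it was 0.395, 0.350 and 0.350. None of the 10 genes passed edgeR's test with an absolute log2FC of 1 or more, with an adjusted or an unadjusted p, in any of the 3 comparisons, where 13.4%, 10.1% and 10.3% of all genes did with the adjusted p. DESeq2 found 1 such gene, COQ7 in erastin-R cells, and 0 in the other comparisons. With edgeR, COQ7 had -0.997 in erastin-R cells, just inside that threshold.

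**Figure D2:**
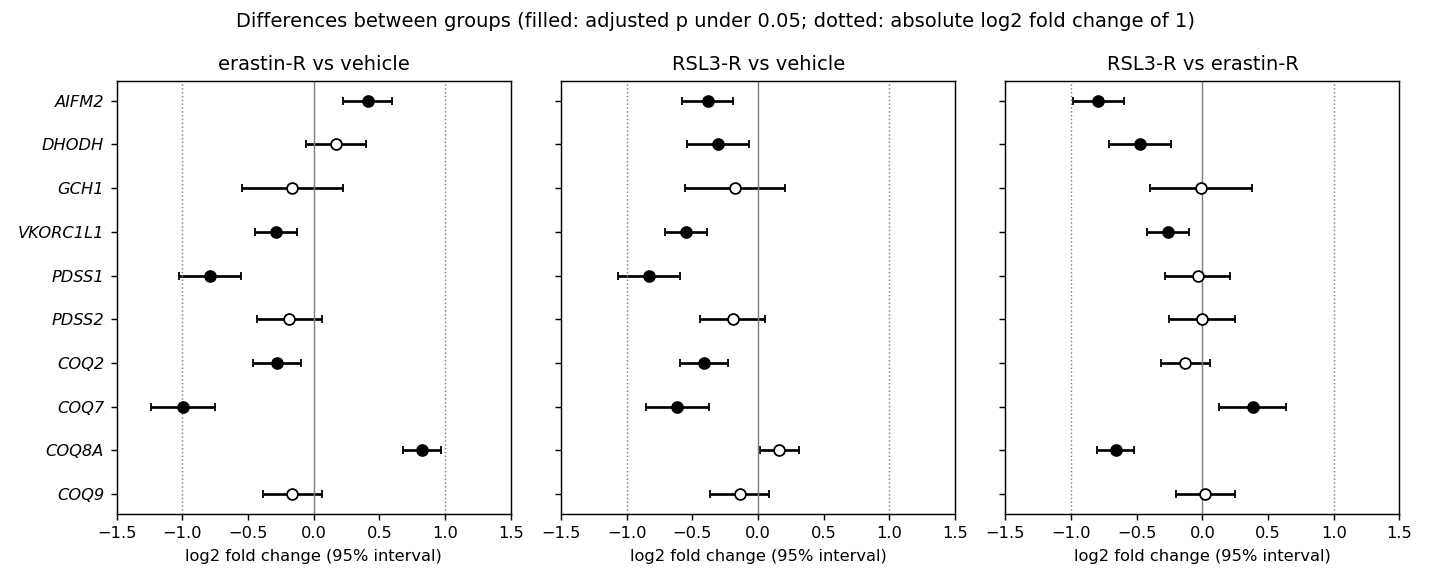
Log2 fold change of each of the 10 genes with its 95% interval (horizontal axis) in the 3 comparisons. Filled points passed edgeR's test at an adjusted p under 0.05, open points did not, and dotted lines mark an absolute log2FC of 1. COQ7 reached -0.997 in erastin-R cells, and AIFM2 was the gene that passed in opposite directions in the comparisons with vehicle (0.41 and -0.38).

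AIFM2, the CoQ and vitamin K reductase FSP1, rose in erastin-R cells and fell in RSL3-R cells. Its level in the vehicle libraries was 33.9, 32.3 and 30.8 CPM. The erastin-R libraries had 42.2, 41.1 and 45.5 CPM, and the RSL3-R libraries 22.8, 27.9 and 23.8 CPM. All 3 erastin-R libraries lay above the vehicle range and all 3 RSL3-R libraries below it. Against vehicle, the log2FC was 0.41 ± 0.088 (SE) in erastin-R cells, a rise of 32.8% with a 95% interval of 16.6 to 51.4% (adjusted p = 0.00130). In RSL3-R cells the level fell by 23.3% (log2FC -0.38 ± 0.090, adjusted p = 0.00308). The direct comparison of RSL3-R with erastin-R cells gave -0.79 ± 0.089 (adjusted p = 8.45e-06), the largest difference among the 10 genes between the survivor groups. All 3 calls held under the 14 alternative settings.

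DHODH, the mitochondrial enzyme that reduces CoQ while making pyrimidines, differed between the survivor groups. The vehicle libraries had 11.7, 11.04 and 11.1 CPM, the erastin-R libraries 12.5, 12.3 and 13.2 CPM and the RSL3-R libraries 8.37, 9.56 and 9.45 CPM. The groups did not overlap, with erastin-R highest and RSL3-R lowest. RSL3-R cells were lower than erastin-R cells by a log2FC of -0.48 ± 0.11 (adjusted p = 0.00248). In erastin-R against vehicle cells the log2FC was 0.17 ± 0.11 and did not pass (adjusted p = 0.200, 95% interval -0.061 to 0.40). In RSL3-R against vehicle cells it was -0.31 ± 0.11 (adjusted p = 0.0318), a call that was lost under 9 of 14 alternatives. These were DESeq2 (adjusted p = 0.0750), upper-quartile normalization (0.0634), no filter on low counts (0.108), the fit with a term for the replicate number, and the fits without vehicle replicate 1 (0.0960), 2 (0.0601) or 3 (0.0547) or without RSL3-R replicate 1 (0.189) or 3 (0.0845).

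GCH1, which starts tetrahydrobiopterin synthesis, passed in none of the 3 comparisons with edgeR. The vehicle libraries had 11.7, 12.6 and 12.9 CPM, the RSL3-R libraries 10.6, 11.2 and 11.1 CPM, and the erastin-R libraries 9.45, 15.4 and 8.44 CPM. The erastin-R libraries spread on both sides of the vehicle range, with replicate 2 above it and the others below. The log2FC was -0.16 ± 0.18 in erastin-R cells (adjusted p = 0.459, 95% interval -0.55 to 0.22) and -0.17 ± 0.18 in RSL3-R cells (adjusted p = 0.446, 95% interval -0.56 to 0.21). Without erastin-R replicate 2, the difference of erastin-R from vehicle cells was -0.47 (adjusted p = 0.00790) and that of RSL3-R from erastin-R cells 0.29 (adjusted p = 0.0834).

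VKORC1L1, the vitamin K reductase, fell in both survivor groups and further in RSL3-R. Vehicle libraries had 104.3, 102.5 and 102.3 CPM. Erastin-R libraries had 74.6, 92.1 and 86.7 CPM, and RSL3-R libraries 70.5, 72.2 and 68.9 CPM. The 3 groups did not overlap. The level fell by 18.0% in erastin-R cells (log2FC -0.29 ± 0.074, adjusted p = 0.00468) and fell by 31.6% in RSL3-R cells (-0.55 ± 0.074, adjusted p = 3.62e-05). The difference between the survivor groups was -0.26 ± 0.075 (adjusted p = 0.0103), and this call was lost with upper-quartile normalization (adjusted p = 0.0895), in the fit of these 2 groups alone (0.0539) and without erastin-R replicate 2 (0.0539), RSL3-R replicate 1 (0.0649) or RSL3-R replicate 3 (0.0853).

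**Figure D3:**
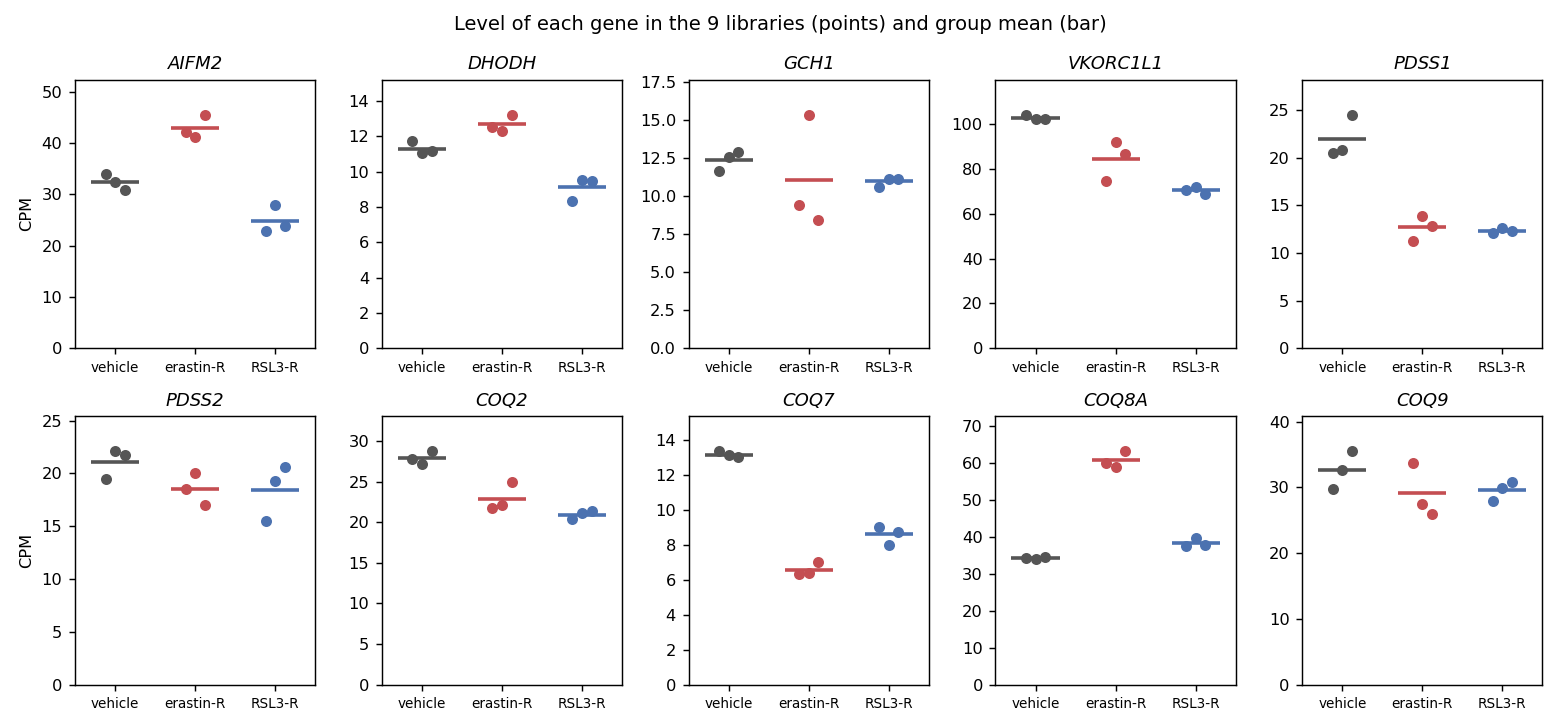
Level of each of the 10 genes in CPM (vertical axes start at 0) in the 3 vehicle, 3 erastin-R and 3 RSL3-R libraries (points), with group means (bars). AIFM2 and COQ8A were highest in erastin-R cells, PDSS1 fell to about the same level in both survivor groups, COQ7 was lowest in erastin-R cells, and 1 erastin-R library of GCH1 stood above the other 8.

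Among the enzymes that make the CoQ tail and join it to the ring, PDSS1 and COQ2 fell in both survivor groups. PDSS1, the catalytic subunit of the tail enzyme, had 20.5, 20.8 and 24.5 CPM in vehicle, 11.3, 13.8 and 12.9 CPM in erastin-R and 12.1, 12.6 and 12.3 CPM in RSL3-R libraries. The survivor libraries overlapped each other, and all 6 lay below the vehicle range. PDSS1 fell by 42.3% in erastin-R cells (log2FC -0.79 ± 0.11, adjusted p = 3.83e-05) and fell by 43.7% in RSL3-R cells (-0.83 ± 0.11, adjusted p = 3.03e-05). The survivor groups differed by -0.037 ± 0.11 (adjusted p = 0.809), with a 95% interval of -0.28 to 0.21.

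The exons of PDSS1 overlap those of ABI1, a gene on the opposite strand, over 206 bases or 10.5% of its exon length. The sources used here do not state whether the counting used strand. ABI1 had 1584 to 2082 counts per library, and its log2FC was 0.11 in erastin-R cells (adjusted p = 0.142) and 0.23 in RSL3-R cells (adjusted p = 0.00675), against the direction of PDSS1 in RSL3-R cells. The part of these shared bases in the PDSS1 values was not tested.

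COQ2, the prenyltransferase, had 27.8, 27.1 and 28.7 CPM in vehicle, 21.7, 22.1 and 24.9 CPM in erastin-R and 20.3, 21.1 and 21.4 CPM in RSL3-R libraries. The vehicle libraries lay above all 6 others. COQ2 fell by 17.8% in erastin-R cells (log2FC -0.28 ± 0.085, adjusted p = 0.0118) and fell by 24.9% in RSL3-R cells (-0.41 ± 0.086, adjusted p = 0.00121), and the survivor groups differed by -0.13 (adjusted p = 0.233). PDSS2, the partner subunit of PDSS1, ranged from 19.5 to 22.1 CPM in vehicle, from 17.1 to 20.1 CPM in erastin-R and from 15.4 to 20.6 CPM in RSL3-R libraries, and all 3 groups overlapped. Its log2FC values of -0.19 ± 0.12 in each survivor group did not pass (adjusted p = 0.190 and 0.186), and their 95% intervals reached from -0.43 to 0.062 and from -0.44 to 0.056.

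COQ7, the hydroxylase of the CoQ ring, showed the largest decrease of the 10 genes in erastin-R cells. It had 13.3, 13.1 and 13.0 CPM in vehicle, 6.30, 6.42 and 7.04 CPM in erastin-R and 9.01, 8.004 and 8.75 CPM in RSL3-R libraries. The 3 groups were separate, with erastin-R lowest. COQ7 fell by 49.9% in erastin-R cells (log2FC -0.997 ± 0.11, adjusted p = 6.35e-06) and fell by 34.7% in RSL3-R cells (-0.61 ± 0.11, adjusted p = 4.12e-04). RSL3-R cells were above erastin-R cells by 0.38 ± 0.12 (adjusted p = 0.0153), a call lost with no filter on low counts (adjusted p = 0.0663). COQ7 was the gene called higher in RSL3-R than in erastin-R cells.

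COQ9, the partner of COQ7, ranged from 29.7 to 35.5 CPM in vehicle, from 26.04 to 33.8 CPM in erastin-R and from 28.0 to 30.8 CPM in RSL3-R libraries, and the groups overlapped. Its log2FC values were -0.16 ± 0.10 in erastin-R (adjusted p = 0.202, 95% interval -0.39 to 0.060) and -0.14 ± 0.10 in RSL3-R cells (adjusted p = 0.287, 95% interval -0.36 to 0.083). Without erastin-R replicate 1, the library with the highest level in its group, the former was -0.29 (adjusted p = 0.00663). COQ9 shares 104 exon bases, 2.41% of its exon length, with CIAPIN1 on the opposite strand, whose log2FC values were -0.13 (adjusted p = 0.173) and -0.34 (adjusted p = 0.00303).

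COQ8A, the atypical kinase of the CoQ complex, had the largest increase in erastin-R cells. The vehicle libraries had 34.3, 34.1 and 34.5 CPM, the erastin-R libraries 60.1, 58.9 and 63.1 CPM and the RSL3-R libraries 37.6, 39.8 and 37.7 CPM. The groups did not overlap, and erastin-R stood far above the other groups. COQ8A was 76.9% higher in erastin-R than in vehicle cells (95% interval 60.1 to 95.5%, log2FC 0.82 ± 0.067, adjusted p = 2.58e-07). In RSL3-R cells the log2FC of 0.16 ± 0.068 did not pass (adjusted p = 0.0640), but it passed with upper-quartile normalization (adjusted p = 0.0197), in the fit of these 2 groups alone (0.0371) and without erastin-R replicate 1 (0.0410). RSL3-R cells were below erastin-R cells by -0.66 ± 0.066 (adjusted p = 3.06e-06). COQ7 and COQ8A thus moved in opposite directions in erastin-R cells.

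The remaining genes of these pathways were taken from lists written for this description. Of 8 other genes of CoQ synthesis and transport, 7 were tested and HPDL had at most 6 counts. The ring methyltransferase COQ3 fell in both groups (log2FC -0.63 ± 0.17, adjusted p = 0.00554 in erastin-R, and -0.90 ± 0.17, adjusted p = 5.41e-04 in RSL3-R). COQ10B, a CoQ-binding transport protein, rose in both (0.48 ± 0.072, adjusted p = 7.52e-05, and 0.38 ± 0.073, adjusted p = 5.94e-04). COQ4, a scaffold of the CoQ complex, passed as lower in both (-0.28, adjusted p = 0.0372, and -0.34, adjusted p = 0.0166), but its calls were lost under 7 and 4 of 14 alternatives. COQ10A passed as lower in RSL3-R cells (-0.61, adjusted p = 0.00253). COQ5, COQ6 and COQ8B passed in neither comparison with vehicle. Under 4 of 14 alternatives COQ5 passed as higher in RSL3-R cells, and under 1 COQ8B did in erastin-R cells. Counted together, 1 of the 7 was higher and 2 were lower in erastin-R cells, and 1 was higher and 3 were lower in RSL3-R cells. These are 14.3% and 28.6% in erastin-R cells, where 27.1% of all genes tested were higher and 26.8% lower, and 14.3% and 42.9% in RSL3-R cells, where 23.8% and 24.9% were.

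Of 7 other genes of tetrahydrobiopterin synthesis and recycling, 1 was higher and 3 were lower in erastin-R cells, and 6 were lower in RSL3-R cells. The shares were 14.3% higher and 42.9% lower in erastin-R cells (27.1% and 26.8% of all genes tested) and 85.7% lower in RSL3-R cells (24.9%). PCBD2, a pterin dehydratase, fell in both (log2FC -1.42 ± 0.15, adjusted p = 2.93e-06, and -0.61 ± 0.14, adjusted p = 0.00262). SPR, which completes the synthesis, fell in RSL3-R cells (-0.82 ± 0.13, adjusted p = 1.57e-04) and had -0.12 in erastin-R cells (adjusted p = 0.463), and the survivor groups differed by -0.71 ± 0.13 (adjusted p = 5.82e-04). PTS, which acts just before SPR, and QDPR, which recycles the cofactor, followed a like order, with -0.41 in RSL3-R cells for each (adjusted p = 0.00461 and 0.00338), and differences between the survivor groups of -0.60 and -0.43 (adjusted p = 2.72e-04 and 0.00247). PCBD1 fell by 0.80 on the log2 scale in RSL3-R cells (adjusted p = 7.96e-06). GCHFR, the feedback regulator of GCH1, had 9 to 12 counts in vehicle and 20 to 30 in erastin-R libraries (1.19 ± 0.35, adjusted p = 0.0107), and this call was lost without erastin-R replicate 3 (adjusted p = 0.0563).

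Among 5 other genes of vitamin K metabolism and quinone reduction, NQO1, a quinone reductase of the cytosol, rose in erastin-R cells alone among the 2 survivor groups. Its level was 89.0 CPM in vehicle, 204.5 CPM in erastin-R and 88.6 CPM in RSL3-R cells (means). Against vehicle, erastin-R cells had a log2FC of 1.20 ± 0.056 (adjusted p = 1.98e-09) and RSL3-R cells had -0.0063 ± 0.057 (adjusted p = 0.936). The survivor groups differed by -1.21 ± 0.056 (adjusted p = 3.04e-09). AIFM2, COQ8A and NQO1 were thus each higher in erastin-R than in RSL3-R cells. The same call was made, among others, for DHODH, VKORC1L1 and VKORC1, though some alternatives lost it for VKORC1L1 and VKORC1. COQ7, GGCX and NQO2 had the opposite call. Of all genes tested, 26.9% were lower in RSL3-R than in erastin-R cells and 22.3% were higher. Whether these genes share a cause was not tested. VKORC1, the relative of VKORC1L1, had -1.09 ± 0.34 in RSL3-R cells (adjusted p = 0.0159), but its vehicle libraries ranged from 65 to 159 counts and the call was lost without vehicle replicate 1 or RSL3-R replicate 3 (adjusted p of at most 0.107). GGCX, the vitamin K-dependent carboxylase, was lower in erastin-R (-0.40 ± 0.067, adjusted p = 1.87e-04) and higher in RSL3-R cells (0.25 ± 0.065, adjusted p = 0.00611). NQO2 rose in RSL3-R cells (0.31 ± 0.066, adjusted p = 0.00165).

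Among 5 other genes of pyrimidine synthesis and salvage, 2 passed as lower in both groups, where 14.5% of all genes tested did. UMPS, which takes the product of DHODH to UMP, fell in erastin-R (log2FC -0.68 ± 0.077, adjusted p = 5.79e-06) and RSL3-R cells (-0.57 ± 0.077, adjusted p = 3.72e-05). CTPS1, which makes CTP, also fell in both (-0.49, adjusted p = 8.27e-05, and -0.63, adjusted p = 1.09e-05). CAD, which starts the pathway, fell in RSL3-R cells (-0.55 ± 0.065, adjusted p = 9.62e-06), had 0.15 in erastin-R cells (adjusted p = 0.0571) and differed between the survivor groups by -0.70 (adjusted p = 1.38e-06). UCK2, a salvage kinase, rose in erastin-R cells (0.26 ± 0.059, adjusted p = 0.00189). Of the 5 genes, 1 was higher and 2 (40%) were lower in erastin-R cells, where 26.8% of all genes tested were lower, and 3 (60%) were lower in RSL3-R cells, where 24.9% were.

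Of 5 mitochondrial dehydrogenases that pass electrons to CoQ, as DHODH does, 3 were tested, and PRODH and CHDH had at most 2 counts. ETFDH, of fatty acid oxidation, rose in both groups (log2FC 0.51 ± 0.16, adjusted p = 0.0133, and 0.60 ± 0.16, adjusted p = 0.00603), the former call being lost without vehicle replicate 1 (adjusted p = 0.0621). GPD2, of the glycerol phosphate shuttle, fell in both (-0.49 ± 0.067, adjusted p = 3.43e-05, and -0.79 ± 0.067, adjusted p = 4.57e-07). SQOR, which oxidizes sulfide, rose in erastin-R cells (0.51 ± 0.081, adjusted p = 1.31e-04) and had -0.043 in RSL3-R cells (adjusted p = 0.697).

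The isoprenoid precursors that PDSS1 and PDSS2 extend come from the mevalonate pathway. All 4 of its listed genes were higher in RSL3-R than in erastin-R cells, as were 22.3% of all genes tested, and 2 of them had an absolute log2FC of 1 or more. FDPS, which makes farnesyl diphosphate and has processed copies elsewhere in the genome, had -1.13 ± 0.095 in erastin-R (adjusted p = 3.56e-07) and 0.080 in RSL3-R cells (adjusted p = 0.504), and its survivor groups differed by 1.21 (adjusted p = 3.53e-07). FDFT1, which draws the precursor toward sterols, fell in erastin-R cells (-0.23, adjusted p = 0.00250) and rose in RSL3-R cells (0.33, adjusted p = 1.90e-04). GGPS1 rose in RSL3-R cells (0.73 ± 0.12, adjusted p = 2.23e-04). PDSS1 itself did not follow this order, since its levels in the survivor groups overlapped.

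Another 6 listed genes myristoylate FSP1 or act on other routes independent of GPX4. Of these, 2 were higher and 2 lower in erastin-R, and 2 were higher and 3 lower in RSL3-R cells. The shares were 33.3% each in erastin-R (27.1% higher and 26.8% lower over all genes tested) and 33.3% and 50% in RSL3-R cells (23.8% and 24.9%). NMT2, a myristoyltransferase, rose in both (log2FC 0.38 ± 0.074, adjusted p = 6.83e-04, and 0.46 ± 0.074, adjusted p = 1.50e-04), whereas NMT1 had -0.090 (adjusted p = 0.266) and -0.33 (adjusted p = 0.00107). MBOAT1, a phospholipid-remodelling acyltransferase, fell in both (-1.27 ± 0.26, adjusted p = 9.13e-04, and -1.27 ± 0.26, adjusted p = 0.00104), from 78 to 97 counts in vehicle to between 29 and 53 in either survivor group. PLA2G6, a phospholipase that removes oxidized fatty acids, rose in both (0.63 ± 0.14, adjusted p = 0.00127, and 0.53 ± 0.14, adjusted p = 0.00501). DHCR7, which consumes the radical-trapping sterol 7-dehydrocholesterol, fell in erastin-R cells (-0.86 ± 0.061, adjusted p = 6.98e-08). It is thus not itself a suppressor, though it was counted among the lower genes of this list. MBOAT2 passed as lower in RSL3-R cells (-0.23, adjusted p = 0.0439), a call lost under 10 of 14 alternatives. For reference, GPX4 itself rose in both groups (0.51 ± 0.057, adjusted p = 4.74e-06, and 0.38 ± 0.057, adjusted p = 7.38e-05), and SLC7A11, the cystine transporter that erastin blocks, rose by 2.76 ± 0.063 (adjusted p = 6.23e-12) and 2.53 ± 0.063 (adjusted p = 9.91e-12).

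**Figure D4:**
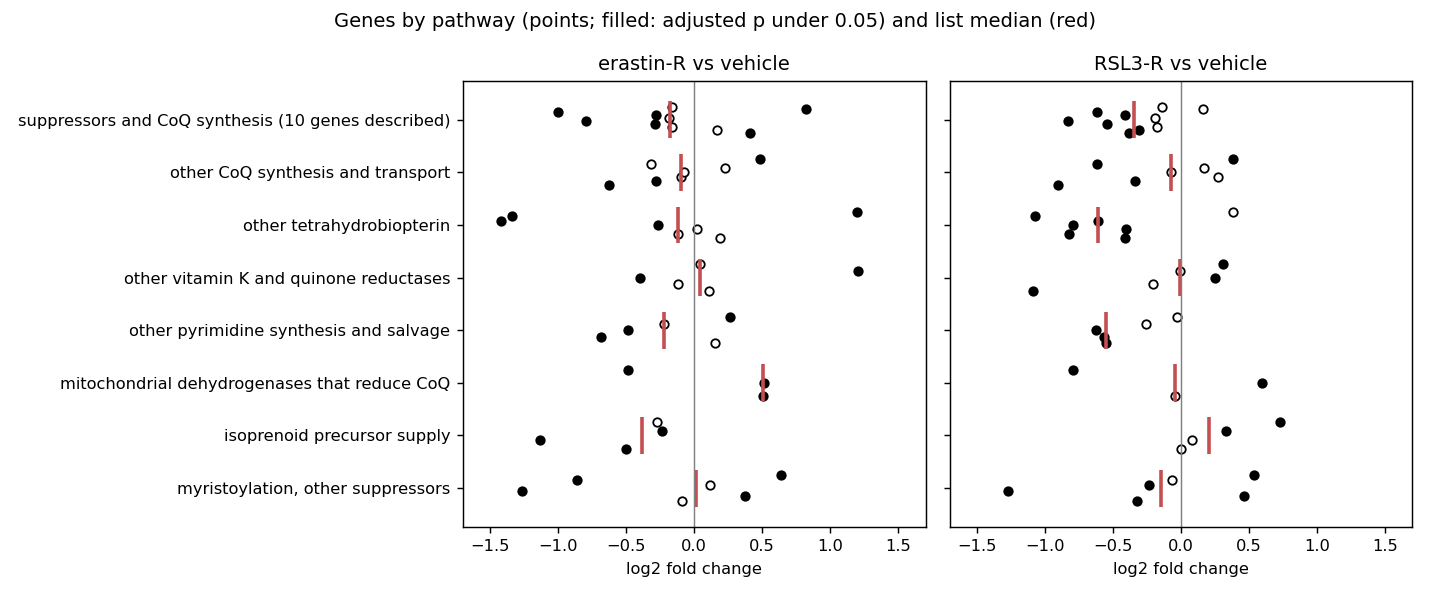
Log2 fold change of each listed gene (points, horizontal axis) in erastin-R and RSL3-R against vehicle cells, by pathway, with the list median in red. Filled points passed edgeR's test at an adjusted p under 0.05. The median of the tetrahydrobiopterin list was -0.12 (erastin-R) and -0.61 (RSL3-R), and that of the isoprenoid list -0.39 and 0.21.

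The level of AIFM2 across the 9 libraries ran most like those of ALOX15B, a lipoxygenase (Pearson r = 0.990 on log2 CPM), PRRC2A (0.985) and SMTN, a smooth muscle cytoskeletal protein (0.983), among 12969 protein-coding genes tested. DHODH ran most like PRRC2A (0.981), HMG20B (0.977) and MED15, a Mediator subunit (0.976), and AIFM2 and DHODH correlated with each other at 0.966. For GCH1 the closest were FUT10 (0.920), ARID5A (0.852) and FBXO42 (0.823). The number of genes with r above 0.95 was 73 for AIFM2, 56 for DHODH and 0 for GCH1. Among pairs of the 10 genes, PDSS1 and COQ2 reached 0.919, VKORC1L1 and COQ2 0.914, and COQ7 and COQ8A -0.877. The 9 libraries fall into 3 groups of 3, so differences between groups enter these coefficients together with those between libraries of a group. The mean level of GCH1 was 12.4, 11.1 and 10.98 CPM in vehicle, erastin-R and RSL3-R cells, and its highest and lowest libraries were both erastin-R. The coefficients describe these libraries only.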

How the data were processed

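RNA of MDA-MB-231 cells was analysed in 9 libraries, grouped by the treatment in the labels. Per the methods, mRNA was poly-A selected and uniquely mapped exonic reads were counted; the processing notes name HISAT2 2.0.5 and featureCounts 1.5.0-p3, and use of strand was not given in the sources used here. The authors deposited raw counts per gene, which were tested as they stand. The deposited FPKM values were made by the authors from these counts (library sizes of 0.9897 to 1.0353 times the total) and were not used for tests.

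Counts were fitted in R 4.3.3 with edgeR 4.0.16 (TMM, filterByExpr, quasi-likelihood test, 1 model of 9 libraries), and p values were Benjamini-Hochberg adjusted over 16188 genes. The test gives no SE, so the SE was computed as the absolute log2FC divided by the square root of the F statistic. The 95% intervals were built from this SE and the t distribution. A floor of 3 counts equals 0.175 to 0.193 CPM. RPKM were computed from CPM and the exon length in the files. Gene models are those of GENCODE 29 (GRCh38). Scripts were tested on simulated data. Alternatives were DESeq2 1.42.0, upper-quartile normalization, no filter, only 2 groups, a replicate block and each library left out. All 10 genes are named; other named genes come from written lists or are the 3 closest correlates of AIFM2, DHODH and GCH1. The genes and lists were chosen with earlier results of these data known. Single results of a few listed genes are not reported here, and these genes remain in the counts of their lists.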

Additional observations from a re-analysis of the deposited data

How the results depend on the processing

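Over the log2 fold changes of single genes under 14 alternatives, 380 values kept their direction and call, 15 lost and 5 gained the call, and 20 changed sign, none of which had passed the test. The count of genes past an adjusted p of 0.05 among the 10 stayed between 4 and 7 in every setting. The count that also reached an absolute log2 fold change of 1 in erastin-R cells went from 0 to 1 (COQ7) with DESeq2, with upper-quartile normalization and with no filter on low counts, and was 0 to 1 with single libraries left out, being 1 without vehicle replicate 2, vehicle replicate 3 or erastin-R replicate 3. Sign changes between RSL3-R and erastin-R cells were those of GCH1 (0.0044 with DESeq2, 0.090 with upper-quartile normalization, 0.027 in the fit of 2 groups), PDSS2 (0.0097, 0.094 and 0.031) and PDSS1 (0.064 with upper-quartile normalization and 2.45e-04 in the fit of 2 groups). With single libraries left out, these differences ranged from -0.18 to 0.29 for GCH1, from -0.068 to 0.14 for PDSS2, from -0.12 to 0.028 for PDSS1 and from -0.055 to 0.14 for COQ9, and that of GCH1 in erastin-R against vehicle cells from -0.47 to 0.00082. The causes were not tested. Upper-quartile normalization raised the share of higher genes among all those differentially expressed between the survivor groups from 66.4% to 76.5%.

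Replicate numbers did not pair the libraries: the mean correlation of deviations from the group means was -0.0049 for 9 pairs with the same number and 0.0026 for 18 pairs with different numbers. With the number as a block, the 10 genes gave 6, 5 and 5 calls in the 3 comparisons, DHODH in RSL3-R against vehicle cells no longer passed (-0.31, adjusted p = 0.0554), GCH1 between the survivor groups was 0.012, and no other call changed.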
